A study of Homo sapiens with 4 samples.

Results

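A total of 1720 promoter sites carried both the fusion oncoprotein SS18::SSX and WDR5 in vehicle-treated synovial sarcoma cells, of the 15141 SS18::SSX peaks in all. A site was counted when an SS18::SSX peak from the DMSO library shared at least 1 bp with a WDR5 peak from the DMSO library and its centre lay between 1000 bp upstream and 100 bp downstream of an annotated transcript start of a protein-coding or lncRNA gene (GENCODE release 44, hg38). Of all SS18::SSX peaks, 5098 (33.7%) overlapped WDR5 and 3586 (23.7%) were centred at a promoter. The sites were thus chosen by their DMSO peak calls and position, and these shares are given as description. The sites touched 1690 distinct WDR5 peaks, and 1682 of them overlapped exactly 1.

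The cells were HSSY II, an established human synovial sarcoma cell line that expresses SS18::SSX1, treated for 4 days either with DMSO as vehicle or with 2.5 µM MS67, a PROTAC that degrades WDR5. Chromatin binding was profiled by CUT&RUN, in which an antibody guides a nuclease to cut out the bound DNA. It was run on 1000000 cells mixed with 50000 mouse NIH-3T3 cells as spike-in. The WDR5 antibody recognises the human and the mouse protein. The SS18::SSX samples received an antibody specific for the fusion and, per the methods, an anti-GFP antibody for the mouse cells, which carried a GFP-tagged histone. Each antibody and treatment gave 1 library and 1 peak list, 4 lists in all, so no difference between DMSO and MS67 has a replicate check and no p-value is given. The intervals below are exact 95% Clopper-Pearson intervals that cover counting error over peaks only, and neighbouring peaks are not independent.

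SS18::SSX arises from the chromosomal translocation that defines synovial sarcoma and joins SS18, a subunit of the SWI/SNF (BAF) chromatin remodelling complex, to the repressor domain of an SSX protein. WDR5 is a WD40-repeat scaffold of the KMT2 methyltransferase complexes, which methylate histone H3 at lysine 4 near active promoters, and it also contacts transcription factors such as MYC. Promoters bound by both therefore bring together a remodeller with altered targeting and a component of the machinery that marks active start sites.

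To show what such sites look like, 200 bases around the SS18::SSX summit are printed for 8 sites with different outcomes after MS67, from the plus strand of hg38. They are examples from strong SS18::SSX peaks of each outcome, in windows that hold no annotated exon, and not every such window is shown. At HCN2, ANKRD18DP, DLL4, COL9A1 and ZBTB46 the printed window lies outside the strongest overlapping WDR5 peak, so it shows SS18::SSX summit sequence only. Capitals mark GGGCGG, the box read by SP and KLF factors, or CCAAT, the NF-Y box, on either strand. The first kept both proteins with MS67.
HCN2, chr19:589325-589524: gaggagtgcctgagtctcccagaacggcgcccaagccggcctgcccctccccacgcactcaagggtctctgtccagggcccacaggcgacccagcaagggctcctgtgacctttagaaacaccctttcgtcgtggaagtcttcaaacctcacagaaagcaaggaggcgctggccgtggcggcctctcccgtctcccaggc
The next 3 kept SS18::SSX but not WDR5.
TPSB2, chr16:1230543-1230742: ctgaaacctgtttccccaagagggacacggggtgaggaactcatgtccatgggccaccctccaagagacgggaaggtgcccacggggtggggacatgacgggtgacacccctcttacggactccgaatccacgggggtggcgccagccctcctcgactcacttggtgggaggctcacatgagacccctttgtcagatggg
ANKRD18DP, chr3:198081544-198081743: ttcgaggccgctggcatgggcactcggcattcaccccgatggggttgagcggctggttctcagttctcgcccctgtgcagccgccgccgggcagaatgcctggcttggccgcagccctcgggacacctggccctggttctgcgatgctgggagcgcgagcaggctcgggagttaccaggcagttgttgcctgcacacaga
TTC32, chr2:19898568-19898767: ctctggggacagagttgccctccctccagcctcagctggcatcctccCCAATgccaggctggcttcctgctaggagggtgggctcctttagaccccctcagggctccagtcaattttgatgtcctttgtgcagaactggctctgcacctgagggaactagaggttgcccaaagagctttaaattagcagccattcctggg
At DLL4 and LINC01388 only WDR5 was kept.
DLL4, chr15:40928648-40928847: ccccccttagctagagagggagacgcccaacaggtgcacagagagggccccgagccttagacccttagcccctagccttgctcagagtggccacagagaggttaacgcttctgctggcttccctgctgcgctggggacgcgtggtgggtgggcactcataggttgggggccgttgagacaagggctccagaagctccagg
LINC01388, chr9:114166-114365: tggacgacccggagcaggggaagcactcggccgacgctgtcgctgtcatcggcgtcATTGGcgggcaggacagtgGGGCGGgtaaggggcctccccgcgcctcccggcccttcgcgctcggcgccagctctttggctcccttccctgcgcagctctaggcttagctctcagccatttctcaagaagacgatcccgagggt
At COL9A1 and ZBTB46 neither peak was kept.
COL9A1, chr6:70281046-70281245: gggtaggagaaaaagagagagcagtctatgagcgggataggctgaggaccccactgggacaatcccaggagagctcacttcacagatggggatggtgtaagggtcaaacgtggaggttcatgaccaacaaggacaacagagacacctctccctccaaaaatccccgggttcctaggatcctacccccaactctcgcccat
ZBTB46, chr20:63832917-63833116: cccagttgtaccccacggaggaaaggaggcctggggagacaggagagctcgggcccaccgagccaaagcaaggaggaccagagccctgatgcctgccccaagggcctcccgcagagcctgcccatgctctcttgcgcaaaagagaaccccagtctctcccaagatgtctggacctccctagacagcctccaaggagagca

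In the windows shown, TTC32 and LINC01388 held a motif, and nothing is read from these examples about outcome. Over all 1720 sites, the 300 bp around the centre of the SS18::SSX peak contained GGGCGG at 52.3%. The share was 28.3% of all SS18::SSX peaks, 30.0% of the cobound peaks away from promoters and 43.8% of SS18::SSX promoter peaks without WDR5. Around the centre of the WDR5 peak it was 47.9% of WDR5 promoter peaks without SS18::SSX. CCAAT was present at 25.9% of the cobound promoter sites and at 26.4% of all SS18::SSX peaks. The other letters searched were CACGTG (an E-box, 7.56% of the sites and 6.82% of all SS18::SSX peaks), CCGGAAG (an ETS box, 6.69% and 3.40%), GACGTCA (a CRE core, 2.27% and 1.27%) and GCATGCG (an NRF1 core, 2.97% and 1.74%), each on both strands. At the SS18::SSX promoter peaks without WDR5 and the WDR5 promoter peaks without SS18::SSX, the ETS box was at 6.0% and 6.42%, the CRE core at 1.61% and 1.93%, the NRF1 core at 3.27% and 2.66% and CCAAT at 29.1% and 24.5%, close to the cobound promoter sites. Counted instead from 250 bp upstream to 50 bp downstream of the nearest start site, GGGCGG was in 67.5% of the promoters at cobound sites and in 39.0% of all annotated promoters, whereas CCAAT was in 31.0% and 33.8% and the ETS box in 9.83% and 9.50%. Base composition moved with these counts: the median GC content of those promoters was 66.7% at cobound sites and 56.3% over all promoters, and its part in the motif counts was not tested.

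The sites were GC-rich and close to start sites. Median GC content around the SS18::SSX peak centre was 64.0%, compared with 60.7% at cobound peaks away from promoters and 62.3% at SS18::SSX promoter peaks without WDR5. The median observed-to-expected CpG ratio was 0.648, 0.380 and 0.579 in the same order. WDR5 promoter peaks without SS18::SSX, measured around the WDR5 peak centre, had a GC content of 62.0% and a CpG ratio of 0.643. Protein-coding genes lay nearest to 1342 sites (78.0%) and lncRNA genes to 378. In all, 1850 genes had a cobound site at a promoter, which was 4.76% of the 38899 annotated protein-coding and lncRNA genes, and 1402 of 20033 protein-coding genes (7.00%). A divergent pair, here start sites of genes on opposite strands within 1000 bp of each other, was present at 228 sites (13.3%), compared with 11.7% of SS18::SSX promoter peaks without WDR5 and 10.8% of WDR5 promoter peaks without SS18::SSX. Chromosome 19 held the most, with 151 sites, or 8.78% of them against 5.14% of all SS18::SSX peaks. The sites were all selected at start sites and the SS18::SSX peaks as a whole were not, so these shares are not a like comparison.

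The selection places the SS18::SSX centre near a start site and WDR5 over it, so summit positions near the start follow from it and are a description. The SS18::SSX summit lay at a median of -100 bp from the nearest start site and the WDR5 summit also at -100 bp. The summits were a median of 164 bp apart, with 619 sites (36.0%) within 100 bp. WDR5 summits were downstream of the SS18::SSX summit at 896 sites and upstream at 816, so neither order prevailed. WDR5 peaks were wider, with a median of 527 bp against 234 bp for SS18::SSX, and the WDR5 peak was the wider of the pair at 1342 sites (78.0%). In the histogram of summit positions, the SS18::SSX summits were most frequent in the first 100 bp downstream of the start (263 sites), whereas WDR5 showed a dip just upstream of it, with 129 summits in the last 100 bp before the start against 181 between 300 and 200 bp upstream and 191 in the first 100 bp downstream.

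**Figure D1:**
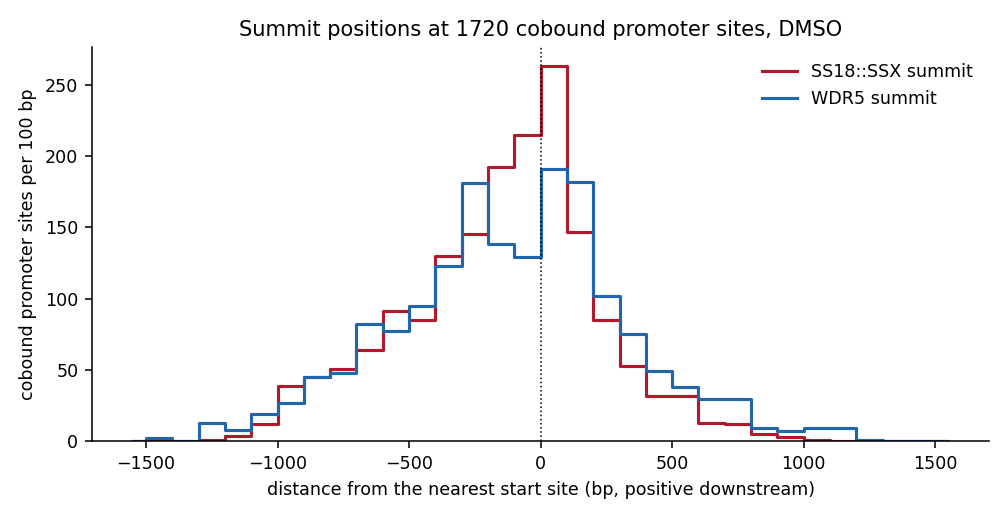
Distance of the SS18::SSX summit (red) and the WDR5 summit (blue) from the nearest transcript start, in bp, at the 1720 cobound promoter sites in the DMSO libraries, counted in 100 bp bins on the y axis. SS18::SSX has 1 mode of 263 sites just downstream of the start, and WDR5 has a dip of 129 sites just upstream of it.

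Peak strength varied widely, and the -log10 q values of the 2 proteins were not related in rank across the sites. The SS18::SSX peaks at these sites had a median fold enrichment over local background of 4.47 and a median -log10 q of 3.50, where q is the peak caller's false discovery rate. The WDR5 peaks there had a median fold of 5.0 and a median -log10 q of 5.89, compared with 4.81 and 4.73 for the 10304 WDR5 promoter peaks without SS18::SSX. Across the 1720 sites, Spearman's rho between the -log10 q values of the 2 proteins was -0.01, whereas for the fragments stacked at the summits it was 0.39. Both values are across sites that share the same libraries and local background. Only 54 sites had an SS18::SSX -log10 q above 10, and 153 lay under 2.

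The strongest SS18::SSX peaks at cobound promoters were at genes of varied function. TPSB2, which encodes a mast cell tryptase, had the highest SS18::SSX -log10 q at 27.8 (chr16:1230488-1231013, centre at -567 bp from the start), with a weak WDR5 peak of 2.71. TNK2-AS1, a lncRNA antisense to the kinase gene TNK2, followed at 23.6 with WDR5 at 8.23. CYP26A1, whose enzyme degrades retinoic acid, had 20.9 with WDR5 at 5.20, and 77 fragments at its SS18::SSX summit against 41 at TPSB2. Next came ANKRD18DP (17.6), the Notch ligand gene DLL4 (17.5), a lncRNA start next to ZDHHC11B (17.0), the collagen IX gene COL9A1 (16.9), an internal start of the polarity gene PARD3 (16.8), PRDM14, a regulator of pluripotency and germ cells (16.6), and TTC32 (16.5). TPSB2 and ZDHHC11B have near-identical gene copies beside them. The authors removed non-primary alignments, so a read that matched both copies was placed at 1 of them, and these values are uncertain.

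The strongest WDR5 peaks lay at other promoters. The highest WDR5 -log10 q was 52.4 (fold 8.55, 100 fragments at the summit) at the divergent start shared by CREM, a cAMP-responsive transcription factor, CUL2, a ubiquitin ligase scaffold, and a lncRNA. The SS18::SSX peak there had 7.36. A single WDR5 peak of 43.9 spanned the divergent start of LMBRD1, which encodes a lysosomal cobalamin transporter, and COL19A1, and overlapped a pair of SS18::SSX peaks of 4.38 and 7.90. The T cell co-receptor gene CD8A had WDR5 at 28.6 and SS18::SSX at 8.14. ANKRD36BP2 (25.7), MDM1 (23.4), the phosphatase gene PPM1H (23.1), the matrix gene MATN2 (23.1), MYH7B together with the glutathione synthetase gene GSS (22.8) and a second CREM start (22.6) completed the list. At those, SS18::SSX ranged from 2.04 at MATN2 to 6.69 at MDM1. None of the sites was among the 10 strongest for both proteins. The site beside ZDHHC11B was strong for both, with SS18::SSX at 17.0 and WDR5 at 21.4.

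MS67 was followed by the loss of almost all SS18::SSX peaks from these promoters. With kept meaning that a peak of the same protein in the MS67 list overlapped the DMSO peak by at least 1 bp, 88 of 1720 sites kept SS18::SSX, or 5.12% (interval 4.12 to 6.27), against 5.81% of all 15141 SS18::SSX peaks. The kept share at cobound promoters was thus near the background of the whole list. It was below the 9.38% (8.42 to 10.4) of the 3378 cobound peaks away from promoters and above the 3.32% (2.56 to 4.24) of the 1866 SS18::SSX promoter peaks without WDR5. The latter difference, 1.79 percentage points, was -1.10 when the study's stricter standard (-log10 q above 3, fold above 3 for SS18::SSX and 6 for WDR5) was applied to all lists, so its direction depends on the threshold. The depth of the MS67 library was not lower: the lowest background in each list, taken as the library's coverage, was 0.541 fragments per bp with DMSO and 0.737 with MS67, a ratio of 1.36. At that coverage 7 stacked fragments were enough for a call with MS67 and 5 with DMSO. Among the 1564 sites whose DMSO p-value would also have passed the smallest accepted with MS67, 5.50% were kept.

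WDR5 itself was retained more often than SS18::SSX, by a margin that depended on the threshold. With -log10 q above 5 in all lists, WDR5 was kept at 10.6% (7.14 to 14.9) of 265 sites and SS18::SSX at 4.91% (2.64 to 8.24). Those intervals overlap. Without that limit, WDR5 was kept at 695 of the 1720 sites, or 40.4% (38.1 to 42.8). By peak, 661 of the 1690 WDR5 peaks at these sites were kept (39.1%), against 35.4% (34.4 to 36.3) of the WDR5 promoter peaks without SS18::SSX and 25.0% of all 35605 WDR5 peaks. An MS67 WDR5 peak overlapped the SS18::SSX peak itself at 520 sites (30.2%). The WDR5 library with MS67 was shallower, at 0.168 fragments per bp against 0.368 with DMSO (ratio 0.458), so weak WDR5 peaks that were still present could go uncalled. When each DMSO peak's fragments and background were scaled to the MS67 coverage, 1087 of the WDR5 peaks at these sites would still have passed, and 49.1% (46.1 to 52.1) of those were kept, compared with 46.1% (44.7 to 47.4) of the 5050 such promoter peaks without SS18::SSX.

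The joint outcome was dominated by loss of both or of SS18::SSX alone. Neither peak was kept at 963 sites (56.0%), WDR5 alone at 669 (38.9%), SS18::SSX alone at 62 (3.60%) and both at 26 (1.51%). Sites that kept WDR5 did not keep SS18::SSX more often: 3.74% (2.46 to 5.43) of the 695 sites with WDR5 kept had SS18::SSX, against 6.05% (4.67 to 7.69) of the 1025 with WDR5 lost, with overlapping intervals. In the plot of strength by outcome, sites that kept SS18::SSX lie to the right and sites that kept WDR5 towards the top. Sites that kept SS18::SSX alone had a median SS18::SSX -log10 q of 7.18 and a median WDR5 -log10 q of 5.24, whereas sites that kept WDR5 alone had 3.27 and 7.99.

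**Figure D2:**
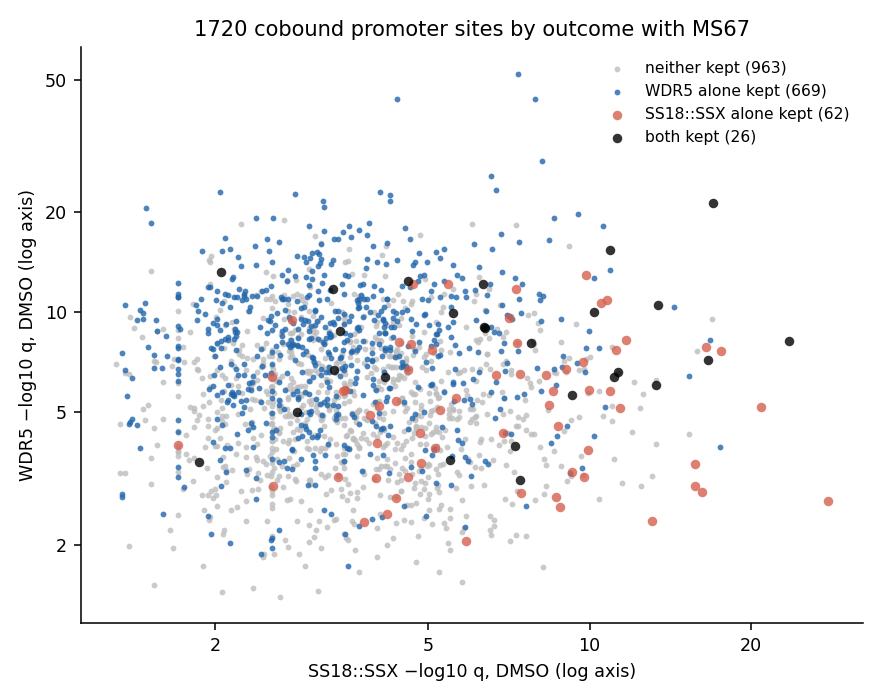
Each point is 1 of the 1720 cobound promoter sites, with the SS18::SSX -log10 q (x) and WDR5 -log10 q (y) of the DMSO libraries on log axes, coloured by which peaks had an overlapping MS67 peak. The 62 sites with SS18::SSX alone kept and the 26 with both kept lie mostly at high SS18::SSX values, and the 669 with WDR5 alone kept at high WDR5 values.

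Initial strength went with retention for each protein separately. All SS18::SSX peaks were divided into 4 equal groups by DMSO -log10 q. From the weakest to the strongest group, 1.08%, 1.74%, 4.57% and 15.3% of the cobound promoter sites kept SS18::SSX. In the strongest group (-log10 q above 5.29) the 360 cobound promoter sites had 15.3% (11.7 to 19.4), the cobound peaks away from promoters 21.2% (18.9 to 23.8) and the promoter peaks without WDR5 12.9% (9.38 to 17.2). In each of the 4 groups the interval of the cobound promoters overlapped that of the promoter peaks without WDR5. WDR5 retention also rose over its own 4 groups: 14.9%, 22.6%, 30.5% and 56.6% of the WDR5 peaks at these sites were kept, compared with 20.6%, 26.1%, 35.8% and 53.1% of WDR5 promoter peaks without SS18::SSX. The higher overall share of WDR5 kept at cobound promoters was therefore not seen in the 3 weaker groups. The shares did not rise with the strength of the other protein: by group of WDR5 strength, SS18::SSX was kept at 6.22%, 6.01%, 3.94% and 5.17% of the sites, and by group of SS18::SSX strength, WDR5 was kept at 43.6%, 43.6%, 36.3% and 37.2%.

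**Figure D3:**
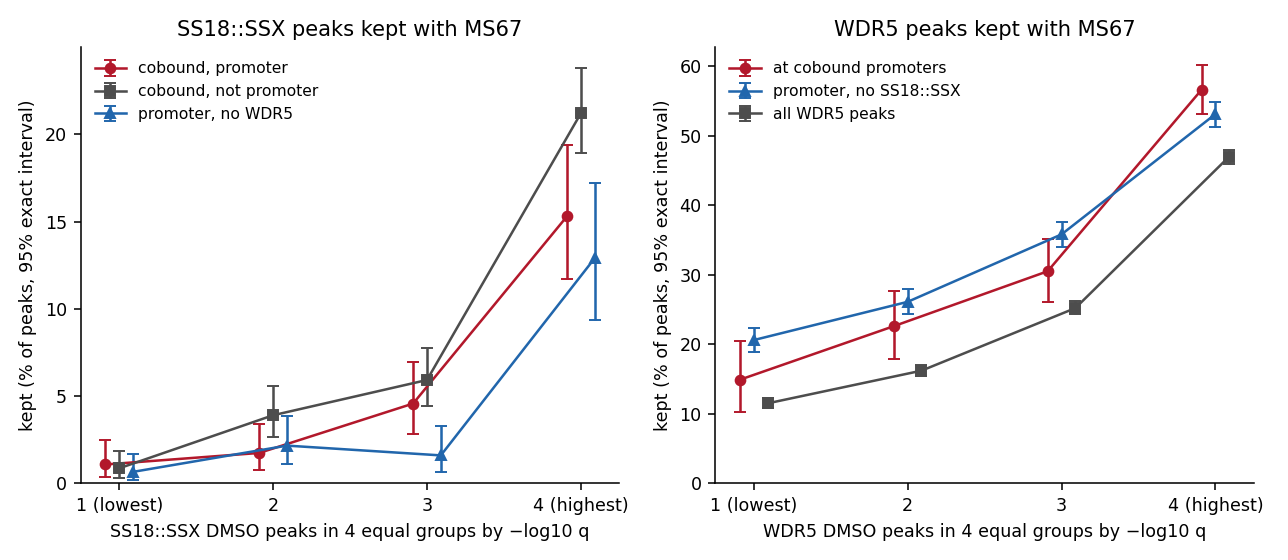
Share of peaks kept with MS67 (y, percent with exact 95% intervals) by group of DMSO -log10 q (x, 4 equal groups of all peaks of that protein), for SS18::SSX on the left and WDR5 on the right. The red cobound promoter sites go from 1.08% to 15.3% for SS18::SSX and from 14.9% to 56.6% for WDR5, and in each comparison class the share is highest in the strongest group.

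Where SS18::SSX was kept, its summit was lower. Summit height was expressed as fragments at the summit divided by the coverage of the library. Each library was scaled to its own coverage and not to the spike-in. A fall shared by the whole library is therefore not seen in this unit. With spike-in normalisation, the paper reports lower overall binding of WDR5 and of SS18::SSX with MS67. At the 88 kept sites the median was 43.5 times coverage with DMSO and 28.5 times with MS67. The median ratio was 0.655, and the height was lower with MS67 at 79 of the 88. For WDR5 the 695 kept sites had medians of 51.7 and 59.4 times, a median ratio of 1.14, and lower values with MS67 at 259. These ratios cover only sites that passed the MS67 threshold, and for WDR5 the shallow library lets no site through under 3 fragments, or 17.8 times coverage, so the 2 proteins' ratios are not a matched comparison.

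**Figure D4:**
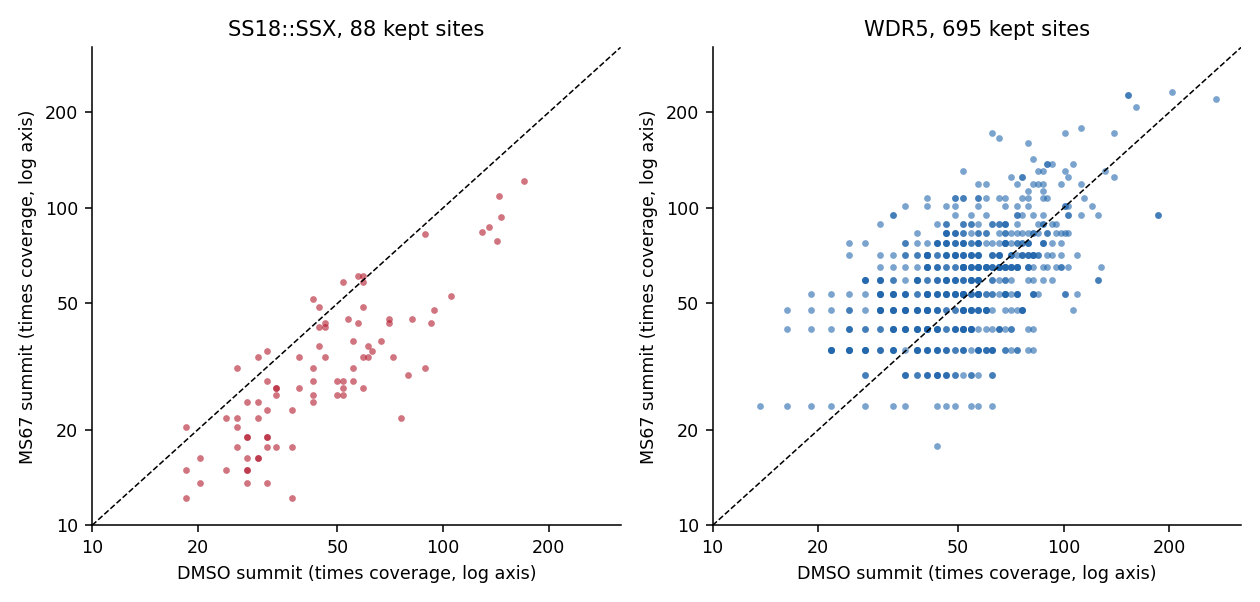
Summit height in times library coverage with DMSO (x) and with MS67 (y), log axes, for the 88 sites that kept SS18::SSX (left) and the 695 that kept WDR5 (right), with the dashed line at equal height. SS18::SSX points lie below the line at 79 of 88 sites, and WDR5 points lie on both sides of it.

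The peaks that remained with MS67 can be named. IQANK1 had the highest SS18::SSX -log10 q with MS67, at 9.29 against 13.1 with DMSO. The lncRNA start beside ZDHHC11B had 9.04 against 17.0, and its second site, 7.26 with DMSO, overlapped the same MS67 peak. MYBL1, a MYB family factor of meiotic cells, had 7.96 against 11.1, PLEKHG4B 7.37 against 9.05, ADAP1 6.94 against 15.7, NKAIN4 6.91 against 13.3, the urea cycle gene NAGS 6.80 against 9.85 and TPSB2 6.56 against 27.8. The -log10 q was lower with MS67 than with DMSO at these sites except the second at ZDHHC11B, with 9.04 above its own 7.26. WDR5 was also kept at ZDHHC11B, MYBL1 and NKAIN4, and was lost at the others. IQANK1, MYBL1 and NKAIN4 lie in the 1 Mb bins with the highest local background, described below. The same holds for other named sites that lost SS18::SSX, among them COL9A1, PARD3, MDM1, ZBTB46, NR2F2-AS1 and both CREM starts.

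The 26 sites that kept both proteins included TNK2-AS1, where SS18::SSX fell from 88.8 to 31.2 times coverage while WDR5 went from 92.5 to 137 times. At PRDM14 SS18::SSX fell from 105 to 52.9 times and WDR5 from 57.1 to 47.5 times. ACHE, the acetylcholinesterase gene, had SS18::SSX at 61.0 and 33.9 times and WDR5 at 73.5 and 53.4 times. HCN2, a pacemaker channel gene, had 66.6 and 38.0 times for SS18::SSX and 54.4 and 71.2 times for WDR5. Relative to library coverage, SS18::SSX was thus lower at all 4, whereas WDR5 was lower at PRDM14 and ACHE and higher at TNK2-AS1 and HCN2. Other transcription factor genes among the 26 included MYBL1, PAX5, GTF3A and, at a site nearest to RSRC1, the homeobox gene SHOX2. These examples were chosen after their values were seen.

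Of the 10 strongest SS18::SSX sites, 7 kept SS18::SSX, and DLL4, COL9A1 and PARD3 did not. COL9A1, with SS18::SSX at 16.9 (102 times coverage) and WDR5 at 9.58, had no overlapping MS67 peak of either protein. The same held for the lysosomal membrane protein gene LAMP3 (15.9 and 7.65), ZBTB46, a transcription factor of dendritic cells (15.3 and 4.32), the forkhead gene FOXL3 (13.3 and 4.01) and NR2F2-AS1, antisense beside the nuclear receptor gene NR2F2 (13.3 and 6.27). These 5 were the strongest SS18::SSX peaks for which neither protein was kept. DLL4 and PARD3, with similar SS18::SSX strength (17.5 and 16.8), lost SS18::SSX and kept WDR5, at MS67 -log10 q values of 3.27 and 2.95. The 10 sites with the strongest WDR5 all kept WDR5, and none of them kept SS18::SSX, beside 40.4% and 5.12% of all 1720 sites. For so few sites, none with SS18::SSX kept is near the overall share. The LMBRD1 and COL19A1 sites among them share the same WDR5 peak. At the shared CREM and CUL2 start WDR5 was 16.1 with MS67 against 52.4 with DMSO, and at LMBRD1 and COL19A1 8.92 against 43.9.

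By gene family, cobound promoters were spread over developmental signalling genes, cell cycle genes and housekeeping genes, at shares read here against 4.76% of all genes and 7.00% of protein-coding genes. Among all 1850 genes with a cobound promoter, 95 kept SS18::SSX and 42.3% kept WDR5. A list of few genes with no SS18::SSX kept is near that share. Of 47 WNT ligands, receptors and modulators, 11 (23.4%) had a cobound site. NOTUM, which inactivates WNT ligands, kept SS18::SSX (8.64 with DMSO, 3.82 with MS67). Of the others, 6 kept WDR5 at a site or more, among them the receptor gene FZD8 (WDR5 -log10 q 16.5 with DMSO, 7.32 with MS67). The ligand genes WNT2 (13.8 and 9.87), WNT10B (13.9 and 4.06) and WNT9A (5.41 and 2.61) were also among these 6. The MS67 library was shallower, which lowers -log10 q, so these pairs do not measure a change in binding. In times coverage, WDR5 went from 204 to 231 at FZD8 and from 78.9 to 77.2 at WNT9A. That unit is relative to each library's own coverage, so it does not measure a fall shared by all sites either. For the inhibitor DKK1 and the ligand WNT3 neither was kept.

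In the p53 and cell cycle list, 7 of 28 genes had a cobound site, among them TP73, a p53 family factor (SS18::SSX -log10 q 8.28), SESN2 (4.94), CDKN2A, which encodes the inhibitors p16 and ARF (3.59), GADD45B and GADD45G (both 3.44) and CDKN2C, a CDK4 and CDK6 inhibitor (2.65). Some of these calls were marginal: at SESN2 the SS18::SSX and WDR5 peaks shared only 1 bp, and CDKN2C had a WDR5 -log10 q of 1.39. The TP73 site was centred at -990 bp, near the edge of the promoter window. None of the 7 kept SS18::SSX, which for so few genes is near the 95 of all 1850 cobound genes. WDR5 was kept at 1 gene, whose values are left out, beside 42.3% of all cobound genes. In the MYC network 3 of 13 genes were cobound, MYC (5.05), MXD1 (2.09) and MXD4 (1.86), and neither protein was kept at any of them. DNA replication genes were cobound at 7 of 43, including FEN1 (6.20), MCM7 (3.12), PRIM1 (2.89) and POLA2 (2.41), with WDR5 kept at 3 and SS18::SSX at none. The list percentages rest on few genes, and the lists were not tested against each other.

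Homeobox genes outside the HOX clusters had a cobound site at 13 of 99, with the motor neuron factor gene MNX1 the strongest (SS18::SSX 12.5, WDR5 3.0, neither kept). TLX2 (8.08) kept WDR5, TLX1 (6.53) kept neither and SHOX2 (6.33) kept both. HOX genes had a cobound site at 2 of 39 (5.13%), near the 4.76% of all genes: HOXA13 (2.56) and HOXC4 (2.47). Of the 39, 13 had an SS18::SSX promoter peak, beside 3587 of all 38899 genes. Neither protein was kept at HOXA13 or HOXC4. Forkhead genes had 5 of 51, led by FOXL3 (13.3), FOXE1 (7.10), FOXI3 (6.21) and FOXP2 (5.02), with WDR5 kept at 2. SOX3 (7.92) and SOX18 (6.45) were the 2 of 19 SOX genes, and TBX21 (5.33), TBXT (4.35), which encodes brachyury, and TBR1 (3.68) the 3 of 29 T-box, GATA, ZIC and SIM genes. TBXT kept SS18::SSX (3.38 with MS67) and lost WDR5. FGF5 (4.64), FGF22 (3.59) and FGF4 (3.11) were the 3 of 27 FGF genes. Of the 8 genes that the study names with chromatin binding, MNX1 was the only one with a site in this class.

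The remaining lists hold many, but not only, housekeeping genes. None of the 84 cytosolic ribosomal protein genes had a cobound site, and 14 had an SS18::SSX and 28 a WDR5 promoter peak. Over all 38899 genes these counts were 1850, 3587 and 11106. None of the 69 replication-dependent histone genes and none of the 20 KMT2 complex subunit genes, WDR5 included, had a cobound site. Translation factor genes had 6 of 62, with EEF1A2 (9.72) the strongest, followed by EIF4H (4.32), EIF4G3 (3.48) and EIF2AK3 (2.86), which encodes a kinase that restrains initiation. Respiratory chain genes had 7 of 94, led by UQCRB (4.82) and NDUFA6 (3.93). Mitochondrial ribosomal protein genes had 3 of 78, led by MRPL21 (5.52), proteasome genes 4 of 39, led by PSMC6 (2.91), and small nucleolar RNA host genes 3 of 31, led by SNHG18 (5.06). The spliceosome list held 1 of 72, HNRNPR (5.81), the SWI/SNF list 1 of 28, BCL7B (4.50), and the Polycomb list 2 of 38, PHC3 (4.47) and PCGF5 (1.96). None of the genes in these lists kept SS18::SSX. Zinc finger genes named ZNF had 38 of 508 (7.48%), led by ZNF407 (9.68), ZNF548 (8.57), ZNF787 (8.28) and ZNF555 (7.09), of which 23 (60.5%) kept WDR5 and none kept SS18::SSX, beside 42.3% with WDR5 kept and 95 with SS18::SSX kept among all 1850 genes with a cobound promoter.

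**Figure D5:**
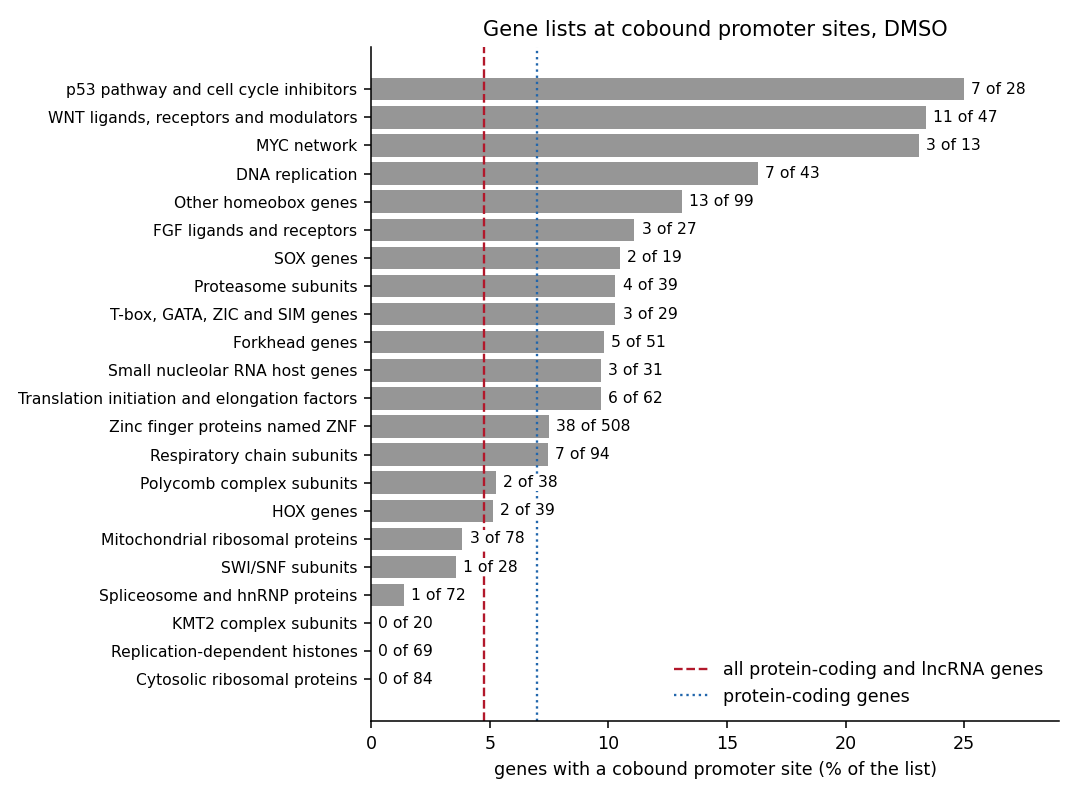
Share of the genes of each list with a cobound promoter site (x, percent, bars starting at 0), with the number of genes printed at each bar and lines at the shares of all protein-coding and lncRNA genes (4.76%, dashed) and of protein-coding genes (7.00%, dotted). The p53 and cell cycle list (7 of 28), the WNT list (11 of 47) and the MYC network (3 of 13) lie highest, and the cytosolic ribosomal protein, histone and KMT2 lists have none.

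Promoter type made small differences. SS18::SSX was kept at 4.47% (3.43 to 5.72) of the sites nearest to protein-coding genes and 7.41% (4.98 to 10.5) of those nearest to lncRNA genes, and WDR5 at 41.7% and 36.0%. At divergent pairs SS18::SSX was kept at 2.63% (0.972 to 5.64) and WDR5 at 47.4% (40.7 to 54.1), against 5.50% and 39.3% at the other sites. All of these intervals overlap between the types.

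Local background moved with SS18::SSX retention. The 5% of 1 Mb bins with the highest background around WDR5 DMSO peaks, 100 bins of 1993, held 178 of the cobound promoter sites (10.3%). SS18::SSX was kept at 10.7% (6.55 to 16.2) of those and at 4.47% (3.50 to 5.63) of the rest, whereas WDR5 was kept at 42.1% and 40.2%. Its part in the result was not tested. Without those bins the ordering of the classes was as before, with 4.47% at cobound promoters, 7.72% at cobound peaks away from promoters and 3.04% at promoters without WDR5.

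Sites at the edge of the selection were weaker where the overlap was short. The 102 sites that shared under 50 bp with WDR5 had a median SS18::SSX -log10 q of 2.98, and the 993 promoter peaks with a WDR5 peak within 1 kb but no overlap had 3.26. SS18::SSX was kept at 1 of the 102 and 28 of the 993. The 92 sites reached only from 900 bp or more upstream had a median of 4.13, and the 50 cobound peaks centred 1000 to 1100 bp upstream had 3.86. SS18::SSX was kept at 9 of the 92 and 4 of the 50.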

How the data were processed

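CUT&RUN peak lists of 4 libraries were used: SS18::SSX and WDR5, each with DMSO or MS67, grouped per the labels. According to the methods and the submitters' processing notes, the authors aligned reads to hg38 and mm10 with Bowtie2, processed them with SAMtools and Picard and called peaks with MACS2 on each library. The options, any control library and whether the spike-in entered the calls are not given in the sources used here. The deposited lists give each peak's fold enrichment (a ratio to local background) and its p-value and q-value as -log10. The deposited score column was not used. The smallest -log10 q of the lists was 1.30 to 1.35.

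Coordinates were matched to hg38 and GENCODE release 44, with 194296 distinct start sites. A site was named by its nearest start, protein-coding first on ties; for 164 sites that gene's own promoter window does not hold the centre. Fragments at the summit and local background were solved from fold and p under MACS2's Poisson model, which fitted 100% of peaks within 0.001, and the lowest background was taken as coverage. The solver and overlaps were tested on simulated data. Shares carry exact 95% Clopper-Pearson intervals. With 1 library per condition no test was run. Genes were named by rule: those the study names, the 10 strongest sites per protein in the DMSO lists, the 10 strongest MS67 peaks of SS18::SSX, the 5 strongest with neither kept, and up to 4 per list, with further list members given for completeness. Printed windows exclude chromosome 8, and some items that the rule selects are not reported here. The sites and lists were chosen with earlier results of these data known. Alternatives are given in the closing section. Scripts used Python 3.11.15, numpy 2.4.6, scipy 1.17.1, pandas 2.3.3 and pysam 0.24.0.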

Additional observations from a re-analysis of the deposited data

How the results depend on the processing

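The number of sites followed the definition. It was 1296 when 50% of the SS18::SSX peak had to be covered, 2713 within 1 kb, 301 by the study's stricter standard in all lists, 265 with -log10 q above 5, and 1035 with 1 start site per gene; it was 1398 to 1805 under the other 5 definitions of the sites. SS18::SSX kept was 2.47% with 50% of the length covered, 7.59% within 1 kb, 2.33% by the stricter standard, 4.04% for 500 bp on each side of a start and 6.39% with nearby peaks merged, and 4.47% to 5.50% under the other 6. WDR5 kept was 16.9%, 51.1%, 23.9%, 43.4% and 50.5% under the same 5 in that order, 10.6% with -log10 q above 5 and 50% over peaks that would pass at the MS67 depth. Neither kept was 80.9% with 50% of the length covered, 44.6% within 1 kb, 74.1% by the stricter standard, 84.9% with -log10 q above 5 and 45.4% with peaks merged. The cause of these shifts was not tested. In all 11 alternatives cobound promoters stayed below cobound peaks away from promoters in SS18::SSX kept (by -0.949 to -7.17 percentage points), and sites with WDR5 kept stayed below sites with WDR5 lost (by -1.05 to -3.71). The difference from promoter peaks without WDR5, 1.79 points, was 3.78 with nearby peaks merged and turned to -1.10 by the stricter standard; the cause was not tested. Basic transcripts, the p-value match and the depth match were added after seeing the data.

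No paired analysis was possible because each protein and treatment has 1 library. WDR5 loss is limited by the depth of the MS67 library, and peak lists show only what passed a threshold, so a lost peak is one that fell under it.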

Other observations

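The position of the sites along the chromosomes was looked at after the list of kept genes had been seen. Of the 88 cobound promoter sites that kept SS18::SSX, 39 (44.3%, interval 33.7 to 55.3) lay within 5 Mb of a chromosome end, compared with 344 of the 1632 that lost it (21.1%, 19.1 to 23.1). For WDR5 the order was the other way, with 16.7% (14.0 to 19.7) of the kept and 26.0% (23.4 to 28.9) of the lost sites near an end. As reference values, 12.9% of annotated genes, 15.6% of all WDR5 peaks, 35.6% of all SS18::SSX peaks and 62.9% of all kept SS18::SSX peaks were that close to an end.

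Within the strongest of the 4 groups by SS18::SSX -log10 q, 22.8% (15.5 to 31.6) of the 114 sites near an end kept SS18::SSX and 11.8% (8.04 to 16.5) of the 246 elsewhere. The same order was seen at promoter peaks without WDR5, with 19.9% (13.7 to 27.3) and 6.71% (3.40 to 11.7). Bins of raised background held 36.8% of those 114 sites and 10.2% of the 246, and their part in the pattern was not tested.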
